A study of Mus musculus with 3 samples.

Results

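Focal adhesions are the assemblies through which a cultured fibroblast holds its substrate, and 10 genes for their core proteins were chosen by name and followed in cardiac myofibroblasts. They were vinculin (Vcl), zyxin (Zyx), paxillin (Pxn), talin 1 (Tln1), tensin 1 (Tns1), integrin-linked kinase (Ilk), alpha-parvin (Parva), PINCH1 (Lims1), focal adhesion kinase (Ptk2) and Hic-5 (Tgfb1i1). Of these 10 genes, 9 were measured, through 15 probes, out of 15393 genes measured in all. No probe name matched a transcript of Tgfb1i1, which is not analysed here.

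In a focal adhesion, talin binds the tail of an integrin and links it to actin, and vinculin joins talin and actin more firmly when the link is under load. Paxillin, its relative Hic-5 and focal adhesion kinase form a signalling layer near the membrane, and integrin-linked kinase, PINCH and parvin form a complex that ties integrins to actin. Zyxin marks mature adhesions and the stress fibres attached to them. Myofibroblasts, the contractile matrix-producing fibroblasts of a healing infarct, are known for large focal adhesions.

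RNA was measured on 3 one-colour Agilent mouse arrays, 1 for each culture state of myofibroblasts from infarcted hearts. The cells came from male C57BL/6J mice whose left anterior descending coronary artery had been tied permanently and whose hearts were collected 3 days later. The age is given as 8 weeks in one label and as 10 weeks at ligation in another. Hearts were digested with collagenase and elastase, cells that attached to plastic overnight were kept, and magnetic separation left the CD45-negative cells, which served as myofibroblasts in all 3 groups. Adherent cells were grown on plastic, non-adherent cells were grown in suspension, and re-adherent cells were returned to plastic after the suspension culture. The paper reports that most cells were lost during the suspension culture, so re-adherent cultures were started from the cells that remained. The part of this loss in the differences between arrays was not tested. The states followed one another in culture, so time in culture and attachment cannot be told apart. The labels do not give the number of hearts behind an array.

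With 1 array for each state, no difference had a replicate check and no p-value could be given. The error printed with a difference is therefore technical: it combines the spot errors that the scanner software gave for the arrays compared, and it leaves out the spread between cultures. For a typical probe this error was 0.20 on the log2 scale, while the spread between repeat spots of one probe gave 0.10. It also leaves out the spread between different probes of one gene. Over 3482 genes with several probes, the median standard deviation of their log2 differences was 0.17 between non-adherent and adherent cells. It was 0.18 between re-adherent and non-adherent cells and 0.11 between re-adherent and adherent cells. A gap between genes past the technical error can therefore still depend on the probes. A level is given as a scaled signal, the processed intensity of a probe divided by the 75th percentile of its array, and it can be compared between arrays for one probe but not between probes. That percentile was 651 intensity units for adherent, 697 for non-adherent and 541 for re-adherent cells, and 58.1%, 59.9% and 53.9% of the 59305 spots were well above background. All 15 probes of the focal adhesion genes were well above background on every array, and none was flagged. None lay in a patch, an area where the median log2 difference of the surrounding spots was shifted by over 0.5. Around their spots this shift lay between -0.33 and 0.34, which at its largest exceeds the typical error of 0.20. Both extremes were around the second Lims1 probe, and around the Pxn probe the shift was 0.26 between re-adherent and non-adherent cells. In RNA from whole cultures, fewer cells of a type and less RNA per cell cannot be told apart.

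RNA of other cell types was present in the cultures, and a sum of scaled signals over a marker list is printed for its size only, since its brightest probes carry it. All 12 fibroblast markers were well above background on every array, with a sum of 2100 in adherent, 1010 in non-adherent and 1950 in re-adherent cells. Of the 12, 5 were lower and 1 was higher in suspension by more than 2-fold (median log2 difference -0.82). Acta2, smooth muscle actin, carried most of the fall of the sum, from 668 to 6.72, while Dcn, decorin, went from 69.2 to 224 and Col3a1, a collagen chain, from 125 to 142. All 16 macrophage markers measured, of 18 listed, were well above background on every array, with a sum of 260, 1660 and 547 in the same order. In suspension 15 of these 16 were over 2-fold higher, Itgam being the exception. Ptprc, which encodes CD45, the protein removed by the separation, had a scaled signal of 0.546, 3.50 and 0.982. The 10 endothelial markers summed to 23.8, 38.9 and 22.3, but Kdr and Egfl7 carried the sum. Of the 10, 7 were over 2-fold higher in suspension (median 1.73), 9 were over 2-fold lower on re-adhesion (-3.43), and 7 were over 2-fold lower in re-adherent than in adherent cells (-1.99), with 3 no longer well above background there. Of those 3, Tie1 can be given only as at least 1.71-fold lower than in adherent cells. Its place among the 7 therefore rests on a signal not well above background. The 5 cardiomyocyte markers measured, of 9 listed, summed to 1.23, 1.95 and 3.38, of which Tnnt2 alone gave 0.911, 1.37 and 3.04. The 6 mural cell markers summed to 2.81, 3.76 and 1.65, mostly from Notch3, and 4, 5 and 3 of them were well above background. The part of these other cells in the differences described next was not tested.

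In suspension the transcripts of most core focal adhesion proteins were lower than on plastic, and after the return to plastic they were again near their first level. Compared with adherent cells, 8 of the 9 genes were lower in non-adherent cells and 1 was higher. By more than 2-fold, 5 of the 9 were lower (Parva, Vcl, Zyx, Tns1 and Ilk) and 0 were higher, where 14.7% and 17.2% of all measured genes were lower and higher by that much. Ilk was at the edge of this count, with -0.99 and so within 2-fold under the authors' scaling, without scaling and under quantile normalization, the last of which put Ptk2 (-1.03) past 2-fold instead. Compared with non-adherent cells, 6 of the 9 were over 2-fold higher in re-adherent cells (the same 5 and Ptk2) and 0 were over 2-fold lower, against 15.6% and 16.3% of all genes. Ptk2 fell out of this count under the authors' scaling (0.83), without scaling (0.74) and with spike-in scaling (0.82). Between re-adherent and adherent cells, 0 of the 9 differed by over 2-fold in either direction, where 4.9% of all genes were lower and 4.84% higher. This count lay near the share of all genes, most of which also differed by less than 2-fold between these arrays. The median log2 difference of the 9 genes was -1.09 in suspension, 1.38 on re-adhesion and 0.19 between the plastic cultures, beside -0.07, 0.08 and 0.06 over all genes. The first and the second of these comparisons share the non-adherent array, so an error on that array would enter both with opposite sign.

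**Figure D1:**
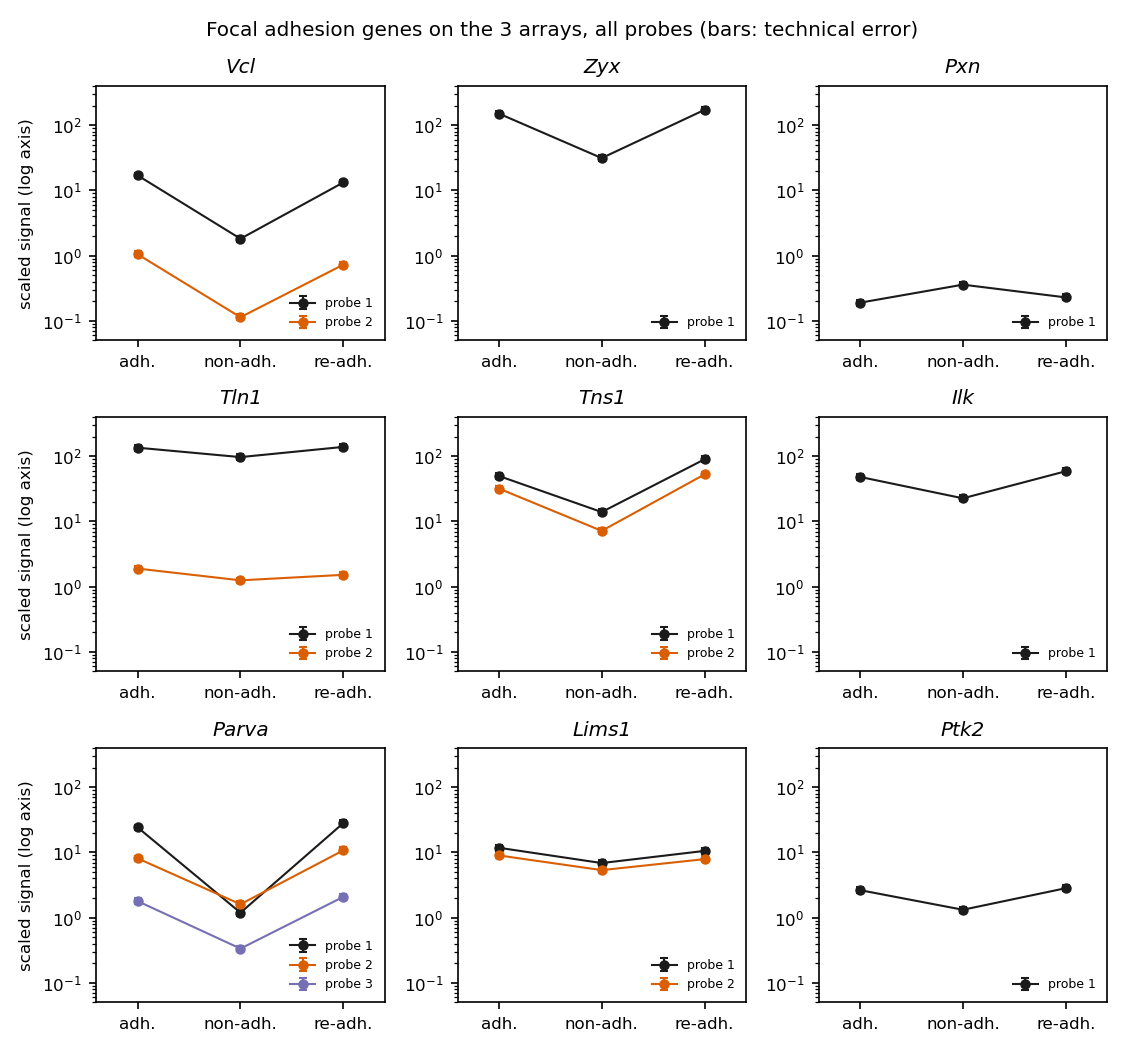
Scaled signal (log axis, no unit) of each focal adhesion gene in the 3 culture states, 1 panel a gene and 1 line a probe, with bars for the technical error of a spot. The non-adherent point is the lowest in every panel but that of Pxn, where the adherent point is the lowest.

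The proteins that link integrins to actin differed widely among themselves. Talin 1, the main integrin activator, had a scaled signal of 136 in adherent, 96.8 in non-adherent and 139 in re-adherent cells. The log2 difference was -0.49 ± 0.20 in suspension (1.40-fold lower) and 0.52 ± 0.20 on re-adhesion, the latter turning to -0.15 under quantile normalization. A second Tln1 probe gave -0.60 and 0.28, and between the plastic cultures it gave -0.33 against 0.04 for the first probe. Of the 9 genes, Tln1 had the smallest difference in suspension.

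Vinculin, which reinforces the link between talin and actin, had a scaled signal of 17.1 on plastic, 1.81 in suspension and 13.2 after the return to plastic. It was 9.42-fold lower in suspension, a log2 difference of -3.24 ± 0.20, and 7.31-fold higher on re-adhesion, a log2 difference of 2.87 ± 0.20. Across the array, 303 genes were lower by more in suspension and 496 were higher by more on re-adhesion. A second Vcl probe, with scaled signals of 1.05, 0.114 and 0.725, gave -3.21 ± 0.22 and 2.67 ± 0.22. In re-adherent cells both Vcl probes were slightly lower than in adherent cells, by -0.37 ± 0.20 and -0.54 ± 0.21 on the log2 scale. Vinculin and talin 1, which bind each other, therefore differed in their size of change by more than the technical error.

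The Vcl promoter was the only one among those found for these genes that held a CArG box, the element bound by serum response factor, whose activity is known to follow actin assembly. The RefSeq promoter table (build GRCm38.p6, 250 bases before to 50 after a start) held 6 of the 10 genes with 9 promoters. A CArG box and the motif GGAATG, known as MCAT and bound by TEAD factors, were searched on both strands, and their matches did not overlap. Of these 9 promoters, 1 held a CArG box and 1 held GGAATG, both times the Vcl promoter, while 1.63% and 14.7% of the 32851 promoters in the table did. The Vcl sequence is shown because it holds both. It covers the 250 bases before the start on the plus strand, chr14:20929148-20929397, with the CArG box starting at position -227 and GGAATG at -143 in capitals.
Vcl promoter: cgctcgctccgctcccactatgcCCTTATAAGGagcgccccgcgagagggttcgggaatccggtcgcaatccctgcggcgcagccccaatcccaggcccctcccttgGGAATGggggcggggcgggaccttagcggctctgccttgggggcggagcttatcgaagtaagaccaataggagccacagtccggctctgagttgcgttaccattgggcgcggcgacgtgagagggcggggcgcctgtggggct
A match to these letters is a description of the sequence and does not show binding.

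Tensin 1, which joins the beta-integrin tail to actin in fibrillar adhesions, had a scaled signal of 49.9 on plastic, 13.9 in suspension and 89.8 after the return to plastic. The log2 difference was -1.85 ± 0.20 in suspension and 2.69 ± 0.20 on re-adhesion, a 3.59-fold lower and a 6.46-fold higher level. A second probe, with scaled signals of 32.1, 7.15 and 52.8, gave -2.17 and 2.89. Of the 9 genes, Tns1 differed the most between the plastic cultures, at 0.85 ± 0.20 with one probe and 0.72 with the other. The difference was positive under every scaling tried, between 0.37 and 0.93.

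Zyxin, a LIM-domain protein of mature adhesions and stress fibres, had a scaled signal of 151 in adherent, 31.3 in non-adherent and 172 in re-adherent cells. The log2 difference was -2.27 ± 0.20 in suspension (4.81-fold lower) and 2.46 ± 0.20 on re-adhesion (5.49-fold higher). The level on re-adhesion was close to that of adherent cells, with a difference of 0.19 ± 0.20 whose sign depended on the scaling.

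The members of the complex of integrin-linked kinase, PINCH and parvin did not move by equal amounts. Ilk, the pseudokinase at its centre, had a scaled signal of 48.2, 22.7 and 58.9, which is 2.13-fold lower in suspension and 2.60-fold higher on re-adhesion. Lims1, the PINCH adaptor that binds it, had a scaled signal of 11.8, 6.85 and 10.5, with log2 differences of -0.79 and 0.62. Its second probe gave -0.75 and 0.56. Ilk and Lims1 were both lowest in suspension, and the gap between their differences there, 0.30, was about the technical error of 0.29. On re-adhesion the difference of Lims1 minus that of Ilk was -0.76 ± 0.29, past that error.

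Parva, which links integrin-linked kinase to actin, had the largest difference of the 9 genes. Its brightest probe had a scaled signal of 24.2, 1.19 and 28.2, a log2 difference of -4.35 ± 0.20 in suspension and 4.56 ± 0.20 on re-adhesion. Only 126 genes were lower by more in suspension and 143 were higher by more on re-adhesion. The other Parva probes, designed to the same transcript, disagreed with this size. One had scaled signals of 8.11, 1.60 and 10.8 and gave -2.34 and 2.75. The other had 1.79, 0.336 and 2.09 and gave -2.41 and 2.64. All 3 probes were lowest in suspension, and all 3 were lower there by more on the log2 scale than either Ilk or Lims1. With the brightest probe, the difference of Parva minus that of Ilk was -3.26 ± 0.29 in suspension and 3.19 ± 0.29 on re-adhesion.

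**Figure D2:**
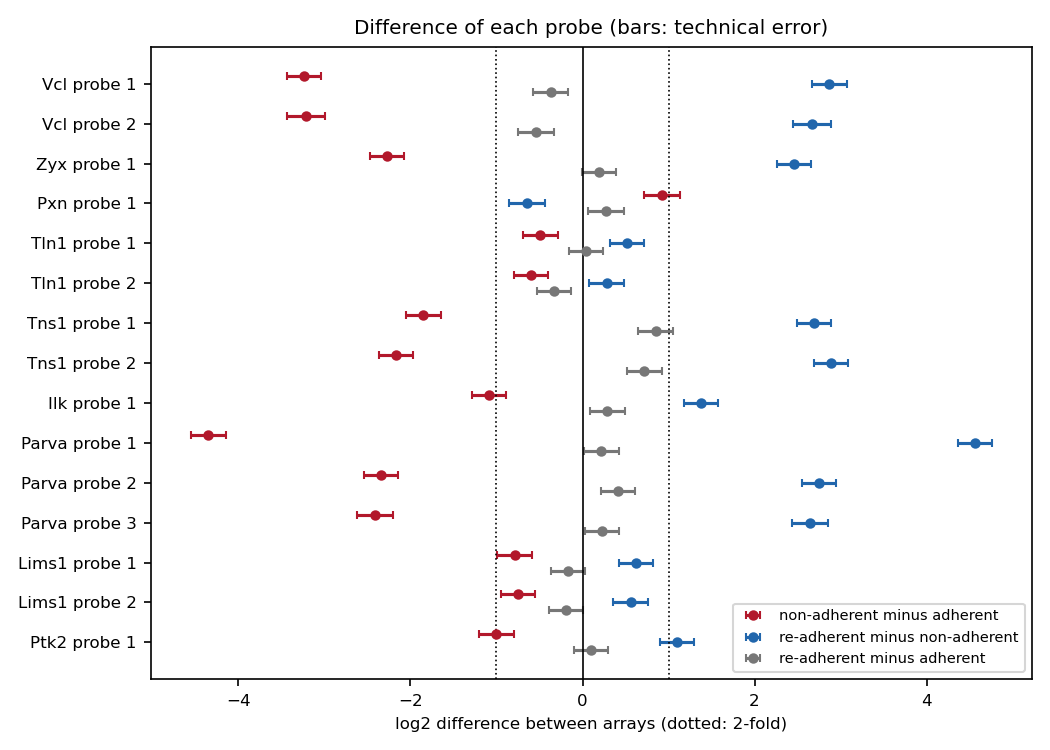
Log2 differences of all 15 probes of the 9 focal adhesion genes in the 3 comparisons between arrays, with bars for the technical error. Vcl and Lims1 probes lie close to their partners, whereas the brightest Parva probe, at -4.35 and 4.56, lies far from the other Parva probes. The Tln1 probes differ in sign between the plastic cultures, at 0.04 and -0.33.

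The signalling layer held the only difference in the opposite direction. Focal adhesion kinase, the tyrosine kinase recruited to clustered integrins, had a scaled signal for Ptk2 of 2.64, 1.32 and 2.84. This was a log2 difference of -1.0 ± 0.20 in suspension, 1.99-fold and so just short of the 2-fold limit, and 1.1 ± 0.20 on re-adhesion, just past it. Ilk, at 2.13-fold, lay just inside the limit in suspension, and the gap between Ilk and Ptk2 of 0.09 was below the technical error of 0.29.

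Pxn, the scaffold that binds vinculin and focal adhesion kinase, was the exception in direction. Its single probe had a scaled signal of 0.19 in adherent, 0.36 in non-adherent and 0.229 in re-adherent cells. The log2 difference was 0.92 ± 0.21 in suspension (1.90-fold higher) and -0.65 ± 0.21 on re-adhesion. With the values that the authors deposited after their own scaling, the first of these was 1.02 and so passed 2-fold. The signal was dim but well above background on every array.

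Set in order of their difference in suspension, the genes ran from Parva through Vcl, Zyx, Tns1, Ilk, Ptk2, Lims1 and Tln1 to Pxn. With the brightest probe of each gene, most neighbours in this order differed by more than the technical error of 0.29. The exceptions were Ilk and Ptk2, and Ptk2 and Lims1, while Lims1 and Tln1 passed that error only narrowly, at 0.30. The place of Parva ahead of Vcl depended on its brightest probe. Its other probes gave -2.34 and -2.41, against -3.24 for Vcl and close to -2.27 for Zyx. The second Tns1 probe, at -2.17, was also close to Zyx, and the second probes of Lims1 and Tln1 gave -0.75 and -0.60. These places in the order therefore depended on the probe. On re-adhesion, Zyx, Tns1 and Vcl followed one another at gaps of 0.23 and 0.18, and Tln1 and Lims1 (0.10) and Ptk2 and Ilk (0.28) also lay within the error.

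**Figure D3:**
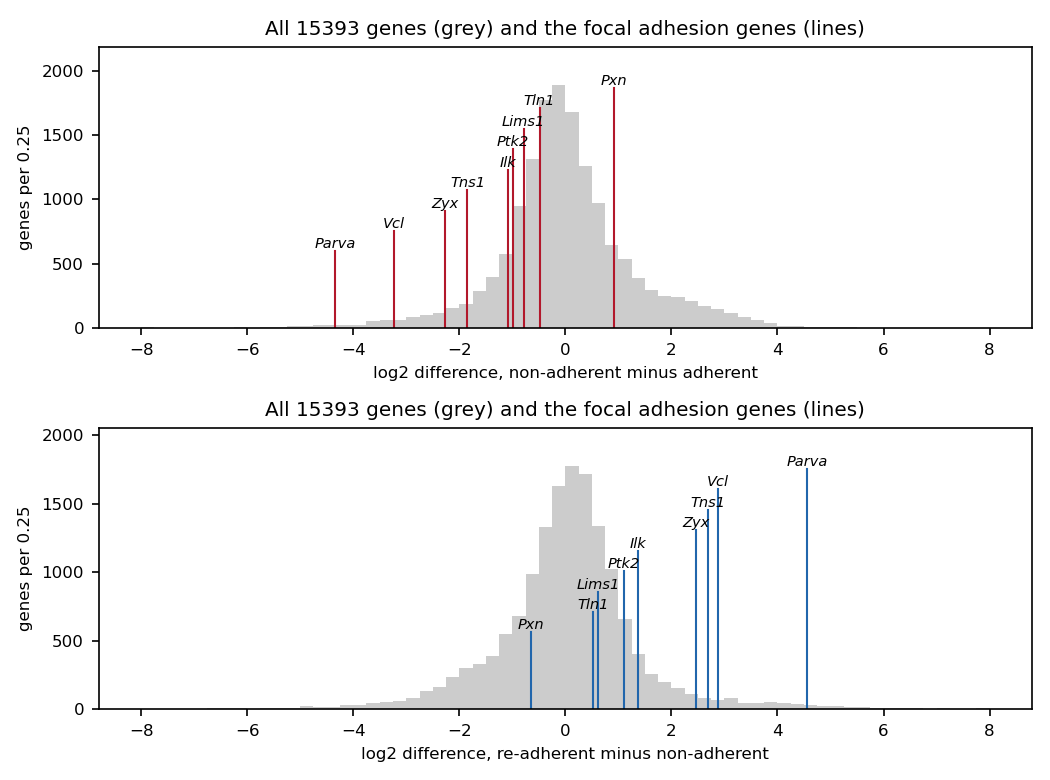
Histograms of the log2 difference of all 15393 measured genes (grey, genes per bin of 0.25) in suspension and on re-adhesion, with a named line at the difference of each of the 9 focal adhesion genes. The height of a line has no meaning. Parva lies in the far tail of both panels, at -4.35 and 4.56, and Pxn lies on the opposite side of 0 from the other genes.

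The families of these genes were counted whole, from a list of 14 paralogues of which 13 were measured (Tns4 was not). By more than 2-fold, 6 were lower and 4 were higher in suspension than on plastic, where 14.7% and 17.2% of all genes were. On re-adhesion, 3 were lower and 6 were higher by that much, beside 16.3% and 15.6% of all genes. Their median log2 difference was -0.77 and 0.88 in these comparisons, beside -0.07 and 0.08 over all genes.

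Within several families, one member was lower in suspension and its relative higher. Among the parvins, Parva was lower, while Parvb had scaled signals of 0.223, 0.693 and 0.269 (log2 difference 1.64 in suspension) and Parvg had 0.249, 1.37 and 0.54 (2.46). Parvg, gamma-parvin, is known as a blood cell parvin. A second Parvb probe gave 0.51, so the size for Parvb was less certain than its direction. Leupaxin, the paxillin relative of blood cells, had a scaled signal for Lpxn of 3.48, 22.7 and 6.09, a log2 difference of 2.71 in suspension and -1.90 on re-adhesion, in the same direction as Pxn and larger. Ptk2b, the relative of focal adhesion kinase known as PYK2, had 2.81, 6.17 and 5.0, which was 1.13 in suspension. Its re-adherent level stayed nearer to that in suspension, at -0.30. The difference of Ptk2b minus that of Ptk2 was 2.13 ± 0.29 in suspension. Parvg, Lpxn and Ptk2b were higher on the array on which the macrophage marker sum was also highest, 1660 against 260 in adherent cells, and the part of those cells in these values was not tested.

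In other families the paralogue was lower by more than the core gene. Lims2, or PINCH2, had a scaled signal of 14.2, 0.397 and 8.32. This was 35.9-fold lower in suspension, a log2 difference of -5.16, and only 56 genes were lower by more. The difference of Lims2 minus that of Lims1 was -4.38 ± 0.29. Tln2, the second talin, had 1.08, 0.253 and 0.987, a log2 difference of -2.09 against -0.49 for Tln1, though a second Tln2 probe gave -1.11. Thus both PINCH2 and talin 2 differed from their better known relatives by more than the technical error, in the same direction.

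The tensins and the zyxin family varied in size. Tns2 and Tns3 were lower in suspension by less than Tns1, at -0.77 and -0.42. Lpp, a close relative of zyxin, had a scaled signal of 16.4, 2.19 and 14.8, a log2 difference of -2.91 in suspension and 2.76 on re-adhesion. Trip6 (-1.94 and 2.14), Ajuba (-2.74 and 2.89) and Wtip (-1.12 and 1.34) went the same way. Limd1 did not, with 0.31 in suspension and -0.26 on re-adhesion, differing from Zyx by 2.58 ± 0.29. Of these LIM-domain proteins, 5 of 6 with Zyx included were therefore over 2-fold lower in suspension, where 14.7% of all genes were. Wtip, at -1.12, lay nearest to that limit. In the promoter table, 9 of the 14 paralogues had 11 promoters. Of these 11, 1 held a CArG box (Trip6) and 4 held GGAATG (Trip6, Wtip, Ajuba and Lpp), where 1.63% and 14.7% of all promoters did. The Trip6 box starts at position 2, after the start.

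**Figure D4:**
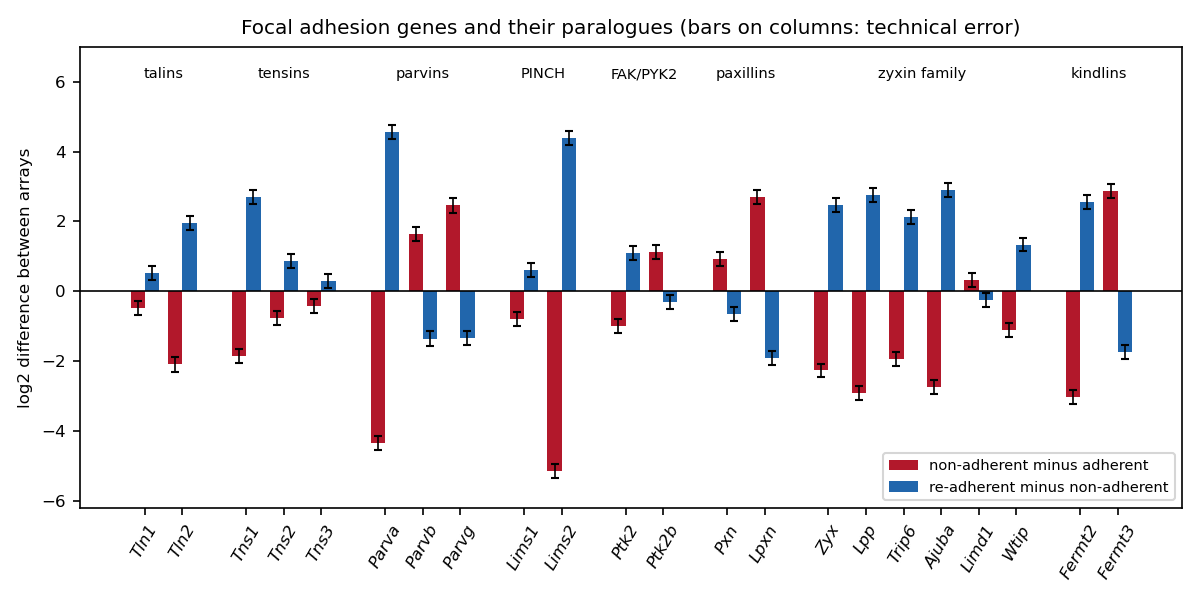
Log2 differences in suspension (red columns) and on re-adhesion (blue columns) of the focal adhesion genes with measured paralogues, grouped by family, and of the kindlins, with bars for the technical error. The parvins, the kindlins and the focal adhesion kinase family spread to both sides of 0 in suspension. So does the zyxin family, through Limd1 alone, while the talins, tensins and PINCH proteins all lie below 0 and the paxillins above it.

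Of 29 binding partners on the list, 28 were measured (Fermt1 was not). By more than 2-fold, 9 were lower and 5 were higher in suspension, where 14.7% and 17.2% of all genes were. On re-adhesion 5 were lower and 9 were higher, beside 16.3% and 15.6% of all genes, so the 5 partners on the opposite side stood near the background share in both comparisons. The median log2 difference was -0.35 and 0.59, beside -0.07 and 0.08 over all genes. Between the plastic cultures 0 partners were over 2-fold lower and 1, Fermt3, was over 2-fold higher in re-adherent cells.

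Among integrin activators, kindlin-2, which works beside talin, had a scaled signal for Fermt2 of 15.1, 1.85 and 10.9. The log2 difference was -3.03 in suspension and 2.56 on re-adhesion, with a second probe at -3.89 and 3.83. Kindlin-3, the kindlin of blood cells, went the opposite way, with scaled signals for Fermt3 of 0.998, 7.32 and 2.18 and log2 differences of 2.88 and -1.75. The difference of Fermt3 minus that of Fermt2 was 5.90 ± 0.29 in suspension.

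Partners that bind actin, vinculin or zyxin differed in size and direction. Sorbs2, a vinculin-binding adaptor, was not well above background in suspension, and adherent and re-adherent cells were at least 5.25-fold and at least 8.73-fold higher. Fhl2, a LIM-domain protein that shuttles between adhesions and the nucleus, had 68.5, 3.43 and 80.3, with log2 differences of -4.32 and 4.55. Palld, the stress fibre protein palladin, had 25.8, 2.72 and 23.8 (-3.24 and 3.13). Enah, which promotes actin filament growth, had 1.44, 0.242 and 1.08 (-2.57 and 2.16, or -1.41 and 0.83 with a second probe). Cttn, cortactin, had log2 differences of -1.84 and 1.88. The relatives of Enah varied, since Vasp gave -0.82 and 0.84, whereas Evl, the third of that family, had scaled signals of 30.7, 86.6 and 30.4 and was higher in suspension at 1.5. Sorbs3, the vinculin-binding vinexin, gave -0.45 and 0.55, and Tes, a LIM-domain protein that binds zyxin, gave 0.18 and 0.63.

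The signalling partners were mixed. Bcar1, the p130Cas docking protein phosphorylated at adhesions, had a scaled signal of 19.9, 3.66 and 17.8 and log2 differences of -2.44 and 2.28. Its relative Nedd9 gave -0.99 and 0.76, and Efs, of the same family, gave 1.46 and -1.39. Rsu1, which binds PINCH1, gave -1.02 and 1.22, and Kank2, a talin-binding protein, gave -1.31 and 1.23. The exchange factors that bind GIT proteins were higher in suspension, Arhgef6 with scaled signals of 3.39, 17.3 and 5.07 (2.35) and Arhgef7 with 14.9, 44.7 and 20.3 (1.58). The GIT proteins themselves differed little, at 0.39 for Git1 and -0.28 for Git2. Src, the kinase that acts with focal adhesion kinase, gave -0.41 ± 0.28 in suspension. The other adaptors and enzymes, Crk, Crkl, Nck1, Nck2, Dock1, Ptpn12 and Kank1, all stayed within 2-fold in suspension, between -0.75 for Crk and 0.62 for Nck1.

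**Figure D5:**
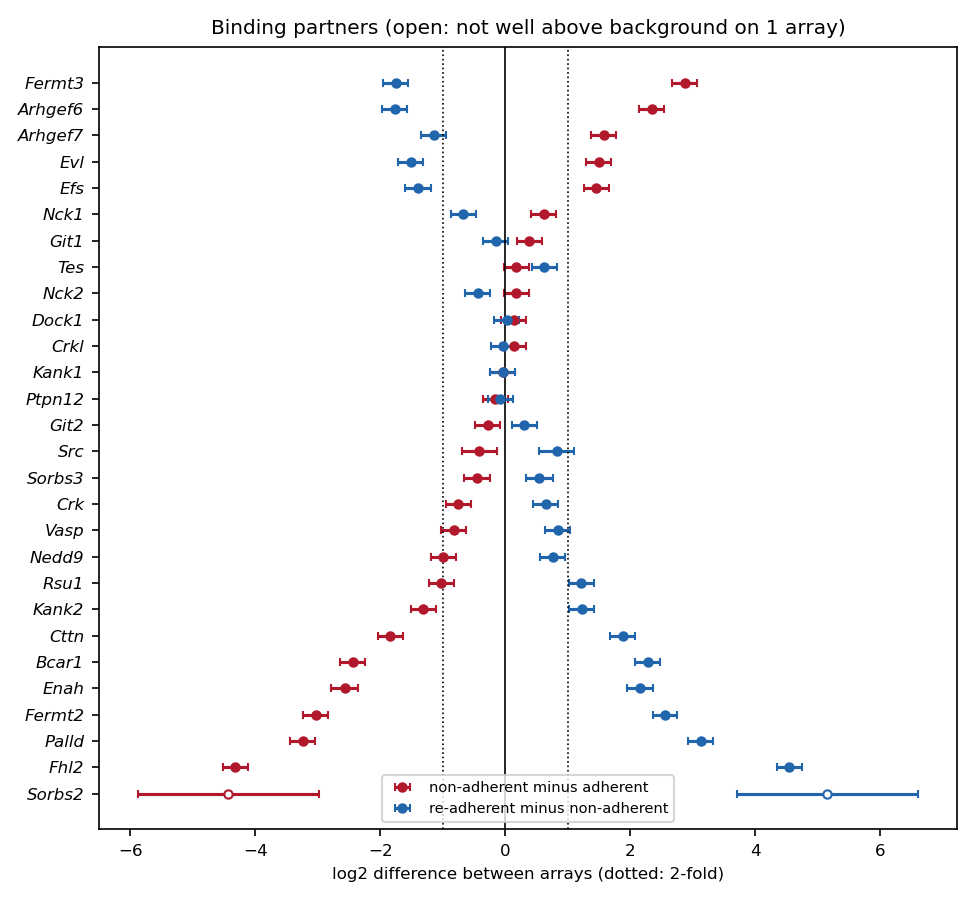
Log2 differences of the measured binding partners in suspension and on re-adhesion, ordered by the first, with bars for the technical error and open points for Sorbs2, which was not well above background in suspension. The order runs from Fhl2 and Palld, lowest in suspension among those above background on every array, to Arhgef6 and Fermt3, highest there.

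Of the 29 partners, 26 had promoters in the RefSeq table, 39 in all, and 4 promoters of 3 genes held a CArG box, while 6 promoters of 5 genes held GGAATG. The shares over all promoters were 1.63% and 14.7%, and that of GGAATG among the partners was close to the latter. The CArG boxes belonged to Fhl2, with 2 promoters, Fermt2 and Rsu1. These genes were over 2-fold lower in suspension, as were 14.7% of all genes. Rsu1 passed that limit only narrowly, at -1.02, and its box starts at position 29, after the start. Palld, Enah, Bcar1, Kank2 and Sorbs2 were also over 2-fold lower, and none of their promoters held a CArG box. A link between the box and the level was not tested. GGAATG was in promoters of Palld, which was lower in suspension, of Evl and Arhgef6, which were higher, and of Dock1 and Nck1, which stayed within 2-fold. Windows around the CArG box of Fermt2 and Fhl2 are shown because both genes were over 4-fold lower in suspension. The box is in capitals, and all 3 windows are on the minus strand.
Fermt2, chr14:45530220-45530309: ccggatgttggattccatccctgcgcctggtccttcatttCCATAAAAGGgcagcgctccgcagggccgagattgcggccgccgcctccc
Fhl2, first promoter, chr1:43196808-43196897: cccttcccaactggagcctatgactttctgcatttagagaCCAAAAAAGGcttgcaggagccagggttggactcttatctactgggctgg
Fhl2, second promoter, chr1:43163962-43164032: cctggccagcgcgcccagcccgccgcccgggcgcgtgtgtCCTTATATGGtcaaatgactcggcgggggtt
The box starts at position -204 in Fermt2 and at -96 and -31 in the Fhl2 promoters.

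Between re-adherent and adherent cells, the core genes lay close together. Tns1 was the highest above its adherent level at 0.85 and Vcl the lowest below it at -0.37, while Lims1 stood at -0.17. The other 6 genes stood between 0.04 and 0.29, and all 6 were negative under at least 1 other scaling, so their direction is not settled. Parvg and Fermt3 were the only paralogue and partner over 2-fold higher in re-adherent cells, at 1.12 and 1.13, on an array whose macrophage marker sum was 547 against 260. With the authors' scaling, without scaling or with spike-in scaling, 0 were over 2-fold higher. The count of 0 core genes over 2-fold between the plastic cultures describes these arrays alone.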

How the data were processed

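RNA from adherent, non-adherent and re-adherent cells was hybridised to 3 one-colour Agilent SurePrint G3 mouse arrays, 1 for each state. Per the labels and file headers, the authors extracted spot values with Feature Extraction 10.10.1.1. The deposited processed signal is an intensity after background subtraction, and the deposited flags for background, saturation and outliers are other values of 0 or 1. The authors' value table held the same intensities multiplied by 1 constant for each array and was used as an alternative.

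Control spots and flagged spots were left out, and repeat spots of a probe were averaged. The log2 of the processed signal was centred on the 75th percentile of its array. A gene counted as measured if any of its probes was flagged well above background on 1 array or more, and the brightest such probe, by its mean log2 level, stood for the gene. Probes were named through unversioned RefSeq accessions, 27235 of 55681 matching a symbol. Where a probe was not well above background on an array, the difference was given as a bound. Errors combine the software's log errors of both spots.

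With 1 array a state, genes were called at 2-fold and no test was run. Alternatives covered the scaling, the background correction, the filter, the choice of probe, flagged spots and the fold limit. Normexp (offset 50, limma 3.58.1, R 4.3.3) was run on the median foreground signal, because the mean signal is not among the columns used here. The scripts ran in Python 3.11.15 with numpy 2.4.6 and pandas 2.3.3 and were tested on simulated data. Promoter sequences are those of RefSeq on GRCm38.p6, and no protein sequences were used here.

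All core genes and every listed paralogue and partner could be named in the text, except 1 partner that is not reported here and was left out of the list and its counts. The genes and lists were chosen with earlier results of these data known. The cell type markers are widely used ones, some of which other cells also express.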

Additional observations from a re-analysis of the deposited data

How the results depend on the processing

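No paired analysis was possible because each state has 1 array, and for the same reason no replicate could be left out. Under 14 other ways of scaling, correcting, filtering or choosing probes, all 9 core genes kept the sign of their difference in suspension, and all but Tln1 (-0.15 under quantile normalization) kept it on re-adhesion. Between the plastic cultures, Vcl, Tns1 and Lims1 kept theirs, whereas Zyx (-0.28 to 0.28), Pxn (-0.20 to 0.36), Tln1 (-0.44 to 0.13), Ilk (-0.18 to 0.38), Parva (-0.26 to 0.41) and Ptk2 (-0.37 to 0.19) did not. Of these 14, 5 (both filters, the floor, flagged spots and patches) could not move a core gene, since all 15 probes were well above background, unflagged and outside patches. Of the counts and medians, 24 values moved. The causes were not tested.

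With a limit of 1.5-fold, 7 core genes were lower in suspension and 7 higher on re-adhesion, 1 core gene was higher in suspension, 1 was lower on re-adhesion and 1 was higher in re-adherent than in adherent cells, and of the paralogues and partners together 1 was lower and 6 were higher in re-adherent cells. At 4-fold, 3 core genes were lower in suspension and 4 higher on re-adhesion, and of the paralogues and partners 4 were higher in suspension, 0 were lower on re-adhesion and 0 were higher in re-adherent cells. The shares of all genes at 1.5-fold and 4-fold are not given here, so these counts have no background beside them. With the authors' scaling, and likewise without scaling, 4 core genes were lower in suspension and 5 higher on re-adhesion. With spike-in scaling these counts were 6 and 5. Of all genes, 13.1% were lower in suspension with the authors' scaling and without scaling, and 19.4% with spike-in scaling. On re-adhesion 11.0%, 9.9% and 10.9% were higher in the same order. With the authors' scaling, 1 core gene was higher in suspension, 0 paralogues and partners were higher in re-adherent cells, and the median of the core genes on re-adhesion was 1.1. Without scaling, 1 core gene was higher in suspension and 1 was lower on re-adhesion, 1 paralogue or partner was lower and 0 were higher in re-adherent cells, and the median was 1.01 on re-adhesion and -0.08 between the plastic cultures. Quantile normalization gave a median of 1.06 on re-adhesion. Scaling on spike-in probes gave 1.1 on re-adhesion and -0.28 between the plastic cultures, with 1 paralogue or partner lower and 0 higher in re-adherent cells. Normexp left 1 higher there. Of all genes, 18.5% were higher in suspension with the authors' scaling and without scaling, and 23.4% were lower on re-adhesion without scaling. Higher in re-adherent than in adherent cells were 3.58% with the authors' scaling, 3.14% without scaling, 2.27% with spike-in scaling and 2.14% with normexp. Lower there were 7.83% without scaling and 12.3% with spike-in scaling.

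Scaling on spike-in probes moved the median of all genes between the plastic cultures from 0.06 to -0.41. Relative to the median of all genes, that of the core genes lay between -1.05 and -0.88 in suspension, between 1.07 and 1.32 on re-adhesion and between 0 and 0.13 between the plastic cultures. The number of arrays limits the precision, and the lowest signals well above background were 16.7, 14.0 and 18.3 intensity units.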
